A study of Mus musculus with 2 samples.

Results

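KLF4 peaks assigned to histone genes were examined in a list of 4216 peaks from mouse liver portal fibroblasts. The genes were taken by symbol, as those beginning with H1f, H2ac, H2bc, H2az, H3c, H3f or H4c and a digit, which gave 73 protein-coding genes in the RefSeq gene table. Only 4 of the 4216 peaks were assigned to them, 1 peak each at H2ac13, H2ac12, H4c6 and H3f3a. The cells carried Clec3bCreERT2 and R26tdT, were sorted from liver by the tdT reporter and received Klf4 by lentivirus. This held for both libraries, the KLF4 ChIP (1 library, antibody against KLF4) and the input (1 library, no antibody). A tamoxifen-inducible Cre under Clec3b marks cells by that gene's activity, and cells without added Klf4 were not analysed here, so the peaks describe KLF4 at raised levels. With 1 library of each kind there is no replicate error, and the values below carry no test. Peak positions, fold enrichments, p-values and q-values are the authors' own, on GRCm39. A peak list does not measure expression, so the labelled cell type could not be checked against its markers.

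Histones are the proteins around which DNA is wound. Most copies of H1, H2A, H2B, H3 and H4 come from replication-dependent genes, which lie in clusters, are switched on in S phase and make transcripts with a stem-loop in place of a poly(A) tail. Many H2A and H2B genes are arranged head to head and share the stretch between their starts, where NF-Y binds CCAAT boxes. Variant genes such as those for H3.3 and H2A.Z lie elsewhere and are expressed through the cell cycle. KLF4 is a zinc-finger transcription factor that binds GC-rich and CACCC-type DNA and is known to slow proliferation in several cell types.

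Both peaks at histone gene starts overlapped the stretch between the starts of an H2A and an H2B gene, and were longer than it. These stretches are shown because the peaks overlap them. They are cut from RefSeq promoter windows of the older build GRCm38.p6, on the plus strand, and reach from the base after the start of the leftward gene to the base before the start of the rightward gene. Their coordinates belong to GRCm38.p6 and do not match the GRCm39 peak positions. Capitals mark CCAAT on either strand. The third stretch, from the next such pair along the chromosome in the table, had no peak and is printed for comparison.
H2bc13 and H2ac13, chr13:21716184-21716411: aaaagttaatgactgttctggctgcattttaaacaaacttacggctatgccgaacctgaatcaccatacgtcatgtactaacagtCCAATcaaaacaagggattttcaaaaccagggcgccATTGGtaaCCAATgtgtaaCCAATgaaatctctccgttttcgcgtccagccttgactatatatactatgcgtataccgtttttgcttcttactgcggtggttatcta
H2ac12 and H2bc12, chr13:22035644-22035820: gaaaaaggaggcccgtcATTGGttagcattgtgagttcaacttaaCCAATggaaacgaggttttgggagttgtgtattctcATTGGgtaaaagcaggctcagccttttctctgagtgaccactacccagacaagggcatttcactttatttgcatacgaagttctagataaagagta
H2ac15 and H2bc15, chr13:21753913-21754075: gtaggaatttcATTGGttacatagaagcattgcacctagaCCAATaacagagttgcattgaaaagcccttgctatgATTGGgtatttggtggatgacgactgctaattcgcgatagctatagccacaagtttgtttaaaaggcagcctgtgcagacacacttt
The first stretch had 228 bases and 4 CCAAT boxes, the second 177 bases and 3, and the third, without a peak, 163 bases and 3. The letters CACCC were absent on both strands from all 3 stretches as cut here, which does not extend to the rest of each peak.

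H2ac13 (ENSMUSG00000071516), an H2A gene of the chromosome 13 cluster, had the strongest histone peak. The peak, on chromosome 13 between 21900336 and 21900582, was 247 bp wide and lay 256 to 10 bp upstream of the annotated start of the gene, which is on the plus strand. The ChIP library had 10 fragments over its summit against a background of 0.542 fragments, a level read as 1 scaled input fragment. Fold enrichment was 7.13, with a q of 6.05e-06. Only 27 of the 4216 peaks had a higher fold. Among the 283 peaks within 1 kb of a protein-coding gene's transcription start site (TSS), 1 had a higher fold and 5 had a lower q. The peak was about as long as the 228 bases that separate the starts of H2bc13 and H2ac13 in GRCm38.p6. The list names 1 gene for each peak, and H2bc13 had none of its own. The peak covered most of the shared stretch, so the name does not tell the 2 genes apart.

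H2ac12 (ENSMUSG00000069302), another H2A gene of the cluster, had the weakest by fold and by fragments, though not by p. Its peak of 304 bp, from 22219730 to 22220033, overlapped the annotated start and reached from 295 bp upstream to 8 bp downstream on the minus strand. The summit had 5 ChIP fragments, the smallest number in the list, and the background was the genome-wide one of 0.307 fragments. Fold enrichment was 4.59 and q 0.0475, values that 989 peaks shared for fold. The head-to-head partner H2bc12 starts 177 bases away in GRCm38.p6 and had no peak of its own. The peak was longer than that stretch.

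H4c6 (ENSMUSG00000069274), a gene for the core histone H4, counted as a promoter gene by distance only. Its peak of 112 bp, from 23733943 to 23734054, was annotated as promoter at 1 to 2 kb with a distance of 1768 bp. That distance ran downstream. The annotated transcript is 391 bp long, and the peak lay 1378 bp past its 3′ end, on the side where the table places H3c7 as the next gene. The peak had 6 ChIP fragments over a background of 0.459 fragments, a fold of 4.80 and a q of 0.0329.

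H3f3a (ENSMUSG00000060743), 1 of the genes for the replication-independent variant H3.3, had an intronic peak. The 148 bp peak lay on chromosome 1 between 180636159 and 180636306, in intron 3 of 3 of one annotated transcript, and 4793 bp downstream of the start of the nearest transcript, which is 10404 bp long. It had 6 ChIP fragments over a background of 0.505 fragments, with a fold of 4.65 and a q of 0.0475. H3f3b, which also encodes H3.3, had no peak.

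**Figure D1:**
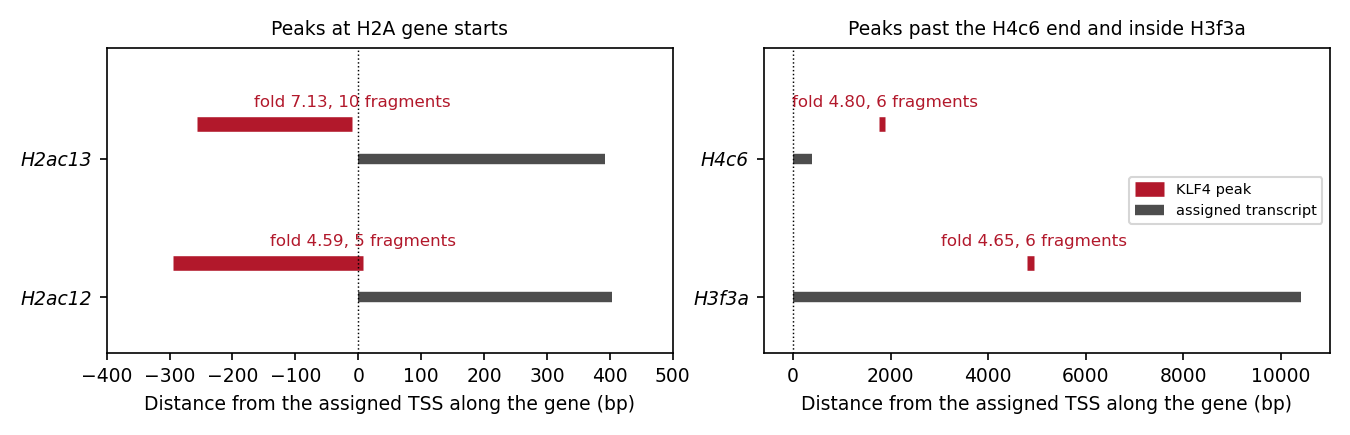
Positions of the 4 histone peaks (red) and their assigned transcripts (dark grey) in bp from the assigned TSS, positive along the gene; the 2 panels have different scales. The H2ac13 and H2ac12 peaks end or begin within 10 bp of the start, the H4c6 peak lies 1378 bp past the gene's end, and the H3f3a peak lies inside the gene.

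The 4 peaks rested on few fragments. H2ac13 had the most, at 10, and 246 peaks of the list had more. The other 3 had 5 or 6, the numbers of 1633 and 1543 peaks in all. By fold, the 4 peaks stood at percentiles 99.3 (H2ac13), 70.7 (H4c6), 65.9 (H3f3a) and 52.1 (H2ac12) of the whole list. Their median fold was 4.73, against 4.59 for all peaks, and their median width 197.5 bp, against 201 bp. The backgrounds of the 4 peaks were 1.00 to 1.77 times the genome-wide one, so none lay in the stretches of high input that hold 202 peaks of the list.

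**Figure D2:**
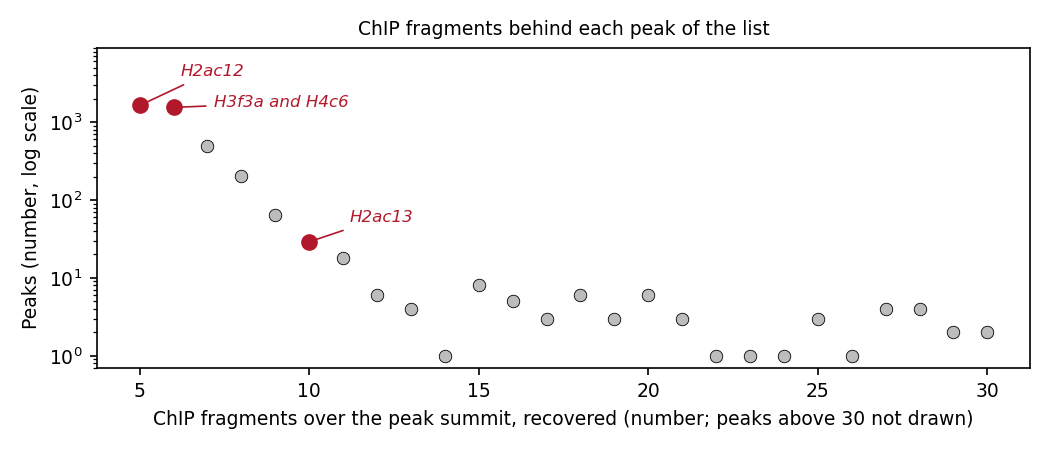
Number of peaks (log scale) by the number of ChIP fragments over the summit, for peaks of up to 30 fragments; red points hold histone peaks, named beside them. H2ac12 sits at the minimum of 5, H3f3a and H4c6 at 6 and H2ac13 at 10, where the list holds 29 peaks.

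A promoter peak, within 3 kb of the start, was assigned to 3 of the 73 histone genes (4.11%, exact 95% interval of the share 0.856% to 11.5%). Over all protein-coding genes of the table the share was 2.19%, inside that interval. Such intervals hold counting error alone. Within 1 kb, 2 of 73 had a peak (2.74%, 0.334% to 9.55%), against 1.21% of all protein-coding genes. With any assigned peak counted, the share was 5.48% (4 of 73, 1.51% to 13.4%), against 6.96%. The background share lay inside the histone interval for all 3 counts, so no difference from it was detectable with so few peaks. Without peaks lying past the 3′ end of their gene, 2 histone genes had a promoter peak, against 2.11% of all. With a fold above the median of the list, 2 did, against 0.763%. At a q under 0.01 only H2ac13 had one, and 0.416% of all protein-coding genes did. H2ac13 also passed a q limit of 1e-05, which 0.0502% of all passed.

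By histone type, H2A had 2 of 17 genes with a peak (11.8%, exact interval 1.46% to 36.4%), H4 1 of 12 and the H3f genes outside the clusters 1 of 4. The share of all protein-coding genes with any peak, 6.96%, lay inside the H2A interval. H2B had 0 of 16 (upper limit 20.6%), clustered H3 0 of 12 (26.5%), H1 0 of 10 (30.8%) and H2A.Z 0 of 2 (84.2%). The H2A and H2B counts are not independent, since the list names 1 gene for a peak and both H2A peaks overlapped a stretch shared with an H2B gene. The intervals of all types overlapped.

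By position, the chromosome 13 cluster held 53 of the 73 genes and had 3 with a peak (5.66%, exact interval 1.18% to 15.7%), against 6.96% of all protein-coding genes. Its linker histone genes H1f1 to H1f6 had none. Neither had the other H2A genes (H2ac1, H2ac4, H2ac6, H2ac7, H2ac8, H2ac10, H2ac11, H2ac15, H2ac22, H2ac23 and H2ac24) or the H2B genes (H2bc1, H2bc3, H2bc4, H2bc6, H2bc7, H2bc8, H2bc9, H2bc11, H2bc12, H2bc13, H2bc14, H2bc15, H2bc22 and H2bc23). The 9 H3 genes (H3c1, H3c2, H3c3, H3c4, H3c6, H3c7, H3c8, H3c10 and H3c11) had none, nor had the other H4 genes (H4c1, H4c2, H4c3, H4c4, H4c8, H4c9, H4c11, H4c12, H4c17 and H4c18). The chromosome 3 cluster had a peak at 0 of 10 genes (upper limit 30.8%, which also holds the 6.96%), namely H2ac18, H2ac19, H2ac20, H2ac21, H2bc18, H2bc21, H3c13, H3c14, H3c15 and H4c14. In the table's gene order it lies between Aph1a and Lix1l, whose peaks at 95800604 and 96526461 on chromosome 3 bounded 726 kb with 0 listed peaks. These bounds are the nearest genes with a peak on each side, so the empty stretch follows from their choice and is a description only. Among the 10 genes outside the clusters only H3f3a had a peak. The others were H3f3b, H3f3c, H3f4, the H2A.Z genes H2az1 and H2az2, and the linker histone genes H1f0, H1f7, H1f8 and H1f10. The 5 histone pseudogenes that the symbols also take had none. Absence from the list does not show that binding was absent, since a peak needed at least 5 fragments.

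**Figure D3:**
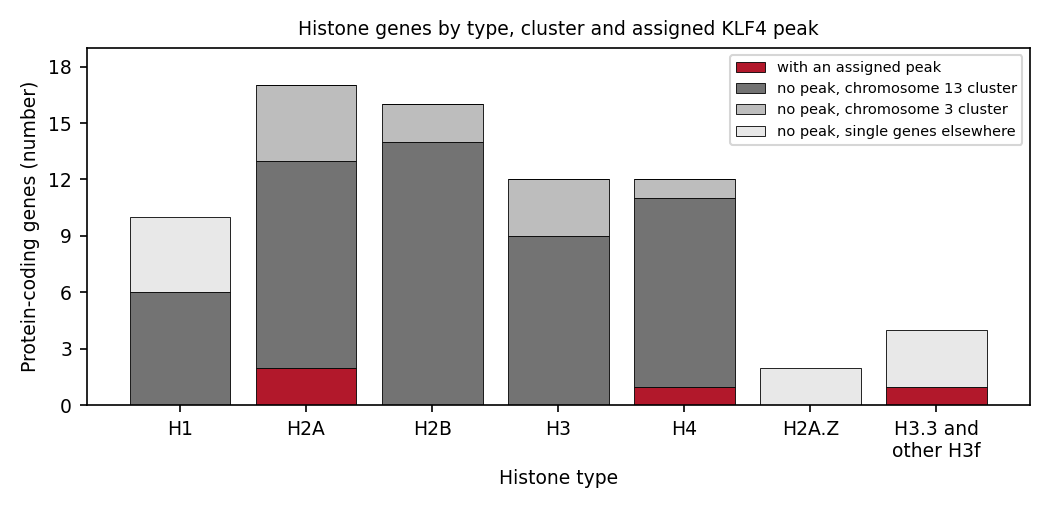
Number of protein-coding histone genes of each type, with genes that had an assigned peak in red and genes without one in greys by location. The red part is 2 genes for H2A and 1 each for H4 and the H3f genes, and there is none for H1, H2B, clustered H3 and H2A.Z.

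The stretch of chromosome 13 between the outermost histone peaks, from 21900336 to 23734054, spanned 1.83 Mb and held 5 peaks, of which 3 were histone peaks. By the order of genes in the older build, the run from H2ac13 to H4c6, both counted, holds 72 protein-coding genes, of which 27 are histone genes, and 77 tRNA genes. The other peaks were assigned to the long non-coding RNA gene Gm11292 and to Vmn1r212, a vomeronasal receptor gene. The Gm11292 peak lay 8994 bp before the H2ac12 peak, from 22210487 to 22210735, at a distance of -134 bp from its gene's start, where a minus sign means upstream. Its fold was 5.32, from 6 fragments, and its q of 0.00523 was lower than that of the H2ac12 peak. The Vmn1r212 peak (23068236 to 23068846) had 5 fragments and a fold of 4.59, the values of the H2ac12 peak. With the bounds set by the peaks themselves, the 2.73 peaks per Mb of the stretch is a description only.

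Head-to-head arrangement was shared by both genes with a peak at the start, but also by most of the 13 H2A genes of the chromosome 13 cluster. In the promoter table, 9 pairs of histone genes had starts on opposite strands facing away from each other with at most 500 bases between them, and all 9 joined an H2A to an H2B gene on chromosome 13. Of these, 2 had a peak within 1 kb (22.2%, exact interval 2.81% to 60.0%), against 4.52% of the 664 such pairs among all protein-coding genes, a share inside that interval. The comparison was chosen after the 2 peaks had been seen. Only genes with a promoter window could form a pair. H2bc4, H2bc21, H3c1, H3c7 and H4c14 had no window, so any pair with them is missing from these counts. The 9 pairs were 163 to 280 bases apart (median 179), and all 664 were a median of 140 bases apart. Of the pairs found, the 7 without a peak were H2ac15 and H2bc15, H2ac22 and H2bc22, H2ac23 and H2bc23, H2ac11 and H2bc11, H2ac8 and H2bc8, H2ac7 and H2bc7, and H2ac1 and H2bc1. H2ac24 faces a gene that the table lists outside the symbol rule, and that pair had no peak.

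Promoter windows of RefSeq (GRCm38.p6), 250 bases before each start, were found for 68 of the 73 genes, in 69 windows, and not for H2bc4, H2bc21, H3c1, H3c7 and H4c14. Each motif was searched on both strands. The core CACCC, the letters of a KLF site, was in 18 of 69 histone windows (26.1%), against 52.0% of all 32851 windows. It was in 60.6% of the 312 windows of 221 protein-coding genes that had a peak within 1 kb. These windows were taken by gene, with every start of the gene, and were not checked for lying under the peak. The longer KLF motif CCACACCC, which includes that core, was in 3 histone windows (4.35%), those of H4c17, H4c18 and H1f7, against 3.20% of all windows, and these genes had no peak. CCACGCCC was in 0, against 4.79% of all. The GC box, CCGCCC, was in 33.3% of histone windows, against 32.7% of all. It was in 51.9% of the windows of protein-coding genes that had a peak within 1 kb. Of the 4 genes with a peak, H2ac13, H4c6 and H3f3a had no CACCC in their windows and H2ac12 had 1. It lay outside the stretch shared with H2bc12. The H2ac12 peak reached 295 bp upstream of the start annotated in GRCm39, and the window 250 bases before the start in GRCm38.p6. Between the builds the starts of H2ac12 and H2ac13 do not shift by the same number of bases, so the starts used for H2ac12 may differ. Whether this CACCC falls within the peak is therefore not known. For H4c6 and H3f3a the window is not where the peak lay. A match is not a binding site, and its absence from these letters says nothing of the factor.

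The motifs known from histone gene promoters were in larger shares of histone windows than of all windows. CCAAT, the letters bound by NF-Y, was in 55 of 69 histone windows (79.7%), against 33.8% of all. At least 2 copies were in 66.7%, against 10.1% of all. The TATA box, searched as TATAAA, was in 42.0%, against 12.4%. The octamer ATTTGCAT, known from H2B promoters as a site of OCT1, was in 20.3%, against 1.60%. The stretch of H2ac12 and H2bc12 held 1 octamer and that of H2bc13 and H2ac13 held 0. GC content was a median of 45.6% in histone windows, against 52.4% in all and 56.8% in those of protein-coding genes with a peak within 1 kb. The H2ac13 window had a GC content of 39.6% and the H2ac12 window 44.0%. The H3f3a window, at 77.2%, was the most GC-rich of the 69. These shares carry no test, since windows of head-to-head pairs overlap and count the same bases for both.

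**Figure D4:**
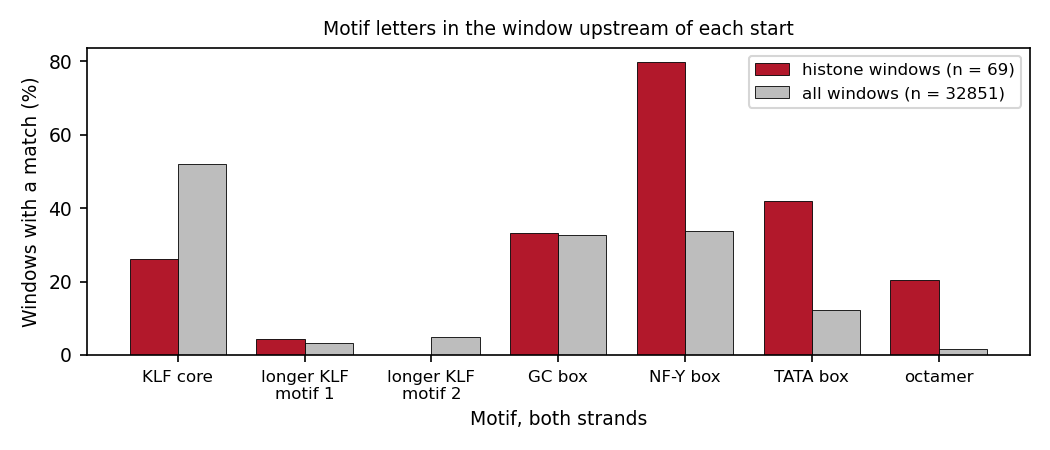
Share of histone promoter windows (red, n = 69) and of all windows (grey, n = 32851) with each motif in the bases before the start. The KLF core is the shorter KLF motif named in the text, followed by the 2 longer ones in the order of the text; the histone share is 26.1% for the core and 79.7% for the NF-Y box, against 52.0% and 33.8% of all windows.

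Near-identical copies can cost a gene its reads, because a read that fits several places may be dropped or shared. The longest exact run that a histone window shared with a window of another gene, other than one overlapping it, was a median of 17 bases (range 15 to 250). For genes with a peak it was 17 bases at H2ac13, 16 at H2ac12, 16 at H4c6 and 21 at H3f3a. In 11 of 69 windows it was 50 bases or more, and in 9 it was 100 or more. Those 11 belonged to H2ac18, H2ac19, H3c14 and H3c15 on chromosome 3 and to H2ac23, H2ac24, H2bc23, H4c11, H4c12, H4c17 and H4c18 on chromosome 13, none of which had a peak. Over all protein-coding genes the share with any peak was 6.96%, so a lack of peaks among 11 genes does not set them apart. The part of the shared runs in it was not tested, and peaks for these 11 genes are uncertain. The sources used here do not give the read length or the treatment of reads that matched several places.

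**Figure D5:**
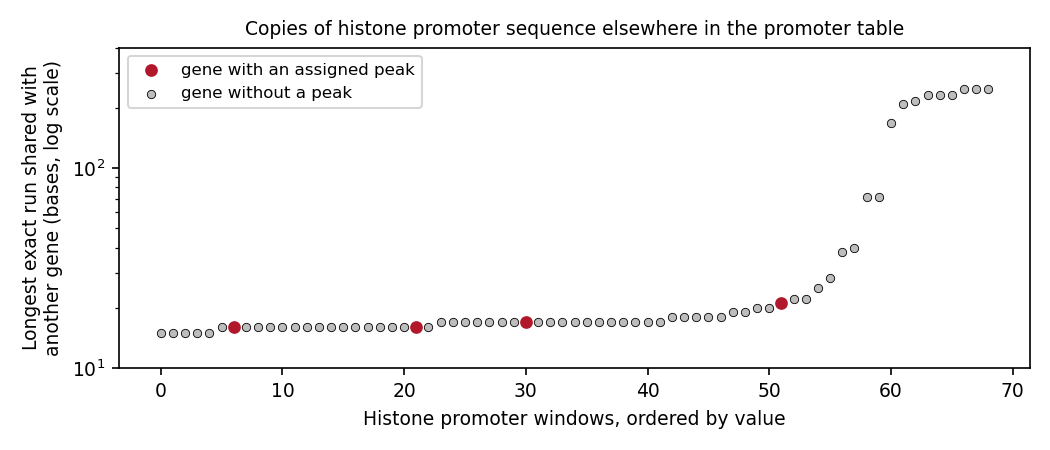
Longest exact run of bases (log scale) that each of 69 histone promoter windows shares with the window of another gene, ordered by value; red points are genes with an assigned peak. The 4 red points sit between 16 and 21 bases. The 11 windows at 50 bases or more had no peak, which is too few to differ from the 6.96% of all protein-coding genes with any peak.

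Genes that act with histone genes were counted in the same way. Of 36 genes for histone transcription, RNA processing and deposition, such as Npat, the S-phase activator of histone genes, Slbp, which binds the stem-loop, and the chaperone genes Hira and Asf1a, 0 had a promoter peak, against 2.19% of all protein-coding genes, and 1 had any peak (2.78%, against 6.96%). With 36 genes, counts this small do not set the list apart from all genes. That was Supt16, a subunit of the histone chaperone FACT, with an exonic peak on chromosome 14 (52410020 to 52410214, 5 fragments, fold 4.42, q 0.0484). Of 7 histone genes outside the symbol rule (H2ax, H2aj, H2aw, Macroh2a1, Macroh2a2, H2ap and Cenpa), 0 had a peak. H2ab1, an H2A variant gene named after its value was seen, was the nearest gene to a distal intergenic peak of 5 fragments (fold 4.59), 97425 bp from its start.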

How the data were processed

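Per the labels' protocols, cross-linked and sonicated chromatin was precipitated with anti-KLF4; a control IgG is also named, and data from it are not analysed here. Of the tools in the submitters' processing notes, MACS2 (2.2.7.1) calls peaks and ChIPseeker (1.44.0) annotates them; Bowtie2 (2.4.2) aligns reads, and fastp (0.24.0), bcl2fastq (2.17) and deepTools (3.4.1) are also listed. The build is GRCm39; the sources used here state no settings. The deposited file is 1 annotated peak list. Its fold enrichment is the authors' ratio of ChIP over local background. Each peak's −log10 p and q and the p-value and q-value columns were likewise deposited by the authors.

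Whole ChIP fragments (h) and background (b) at each summit were recovered from the deposited fold, read as (h + 1)/(b + 1), and p, read as the Poisson chance of exceeding h. All 4216 peaks were fitted within 0.001 of −log10 p. This reading was assumed, since the settings are not stated; 1000 simulated peaks made with the same formula tested the code only, not the reading. Library totals were not used, so absolute depth is unknown. Background over 10 times the genome-wide one counted as high.

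Histone genes without a peak were counted from RefSeq's gene table (GRCm38.p6), used for names and gene order; 1505 of 1585 protein-coding symbols of the list (95.0%) matched by symbol or unique synonym. Shares have exact (Clopper-Pearson) intervals. All histone genes with a peak were named, with lists of other histone genes and of histone supply genes. Alternatives were q limits, promoter limits, fold, gene sets, measures of strength and motif windows. Genes and lists were chosen with earlier results of these data known. Calculations used scipy 1.17.1, pandas 2.3.3 and numpy 2.4.6 under Python 3.11.15, and matplotlib 3.10.9 drew the plots.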

Additional observations from a re-analysis of the deposited data

How the results depend on the processing

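With a q under 0.01, and equally under 1e-05, the counts fell to 1 histone gene with a promoter peak (3 as reported), 1 with any assigned peak (4 as reported) and 1 histone peak (4 as reported); the peak left in each case was that of H2ac13, and fewer peaks enter at a stricter q. The other 15 of 21 settings kept each value within 1.5 times of the reported one, or for strength within 1 SD of the 4 percentiles. These were promoters within 1 kb, fold above the median, replication-dependent genes only, the wider gene sets, current symbols only, leaving out high-background peaks or peaks past the 3′ end, peaks within 1 kb counted once, distance from the peak centre, other measures of strength and a longer motif window. A fall from 3 to 2 histone genes with a promoter peak was counted as kept, though it lies at the limit of 1.5 times. This was so for promoters within 1 kb, fold above the median and leaving out peaks past the 3′ end. All 3 such genes as reported are replication-dependent and the wider gene sets added none, so those settings could not move that count. The settings without high-background peaks and without peaks past the 3′ end and the set with H4f16, H2bu2 and H2ab1 were chosen after seeing the data. The median percentile of the 4 peaks was 68.3 by fold, 55.2 by −log10 q and 57.0 by fragments. CACCC was in 22 histone windows of 300 bases, against 18 of 250. With 1 ChIP and 1 input library, counts of 5 or 6 fragments limit the peaks of H2ac12, H4c6 and H3f3a, and no setting replaces a replicate.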
